A study of Canis lupus familiaris with 28 samples.

Results

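The contact response of cells with p190B knockdown alone was read from 4 of the 28 samples of the series. These were the samples of experiment 1 labelled with the p190B shRNA and no other shRNA, 2 harvested confluent and 2 sub-confluent. The cells were TR-T10, a dog cell line. The p190B cells were made by retroviral transduction of an shRNA against p190B, selected in puromycin, and per the labels' protocols doxycycline at 4 µg/ml induced the shRNA over 3 days before cells were replated at low or high density for 3 to 5 days. The comparison lines of experiment 1 were wild-type cells, cells with a p190A shRNA (hygromycin selection), and double knockdown cells, which were p190B knockdown cells that also received the p190A shRNA. Each line had 2 libraries at each density, 16 in all. Whether the wild-type cells were also given doxycycline is not in the labels. Nothing ties the replicates to separate cultures either, and the p-values then reflect only how far these libraries spread, which may be technical. Each line was treated as 1 population, and those with an shRNA were drug-selected.

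p190A and p190B are related GTPase-activating proteins. Crowding slows the division of many cultured cells, a behaviour called contact inhibition. One arm of it is the Hippo pathway, in which LATS kinases phosphorylate the coactivator YAP1 and keep it from binding TEAD transcription factors in the nucleus. Confluent and sub-confluent cells of 1 line therefore differ in cell contact, in crowding and in growth, and these cannot be told apart in a comparison of densities.

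The values were counts of sequencing reads per Ensembl dog transcript. The 4 p190B libraries held 12110040 to 13759384 transcript-assigned reads and 15350 to 15569 transcripts with at least 1 count, within the ranges of the 16 libraries (10706716 to 17215544 reads and 15338 to 15804 transcripts). The ratio of ambiguous to uniquely placed reads was 21.6% to 22.9% in them. Replicates of the p190B cells differed by a median of 0.175 on the log2 scale at confluence and 0.158 sub-confluent, against 0.154 to 0.284 across the 8 groups, and the highest value was that of the sub-confluent p190A libraries. The deposited tables list Ensembl identifiers alone, and the reference gene table matched 0 of 29884. The extent of the p190B knockdown was therefore not checked, and transcripts are given by identifier. The cell type was not checked against markers either.

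Of 12845 transcripts tested in p190B cells, 577 rose at confluence and 760 fell (edgeR quasi-likelihood, adjusted p under 0.05). That was 10.4% of the tested transcripts, 4.49% higher and 5.92% lower. The changes were mostly modest: the median called rise was 0.86 and the median called fall 0.71 in absolute log2 fold change, or 1.81-fold and 1.63-fold. At least 2-fold changes were 234 rises (1.82% of those tested) and 205 falls (1.60%). Only 65 rises and 39 falls reached 4-fold. The extreme folds came from transcripts with few reads. Among those with a mean log2 CPM of at least 3, where CPM is the read count relative to the TMM-scaled library size, the largest rise was 6.76-fold and the largest fall 15.6-fold.

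**Figure D1:**
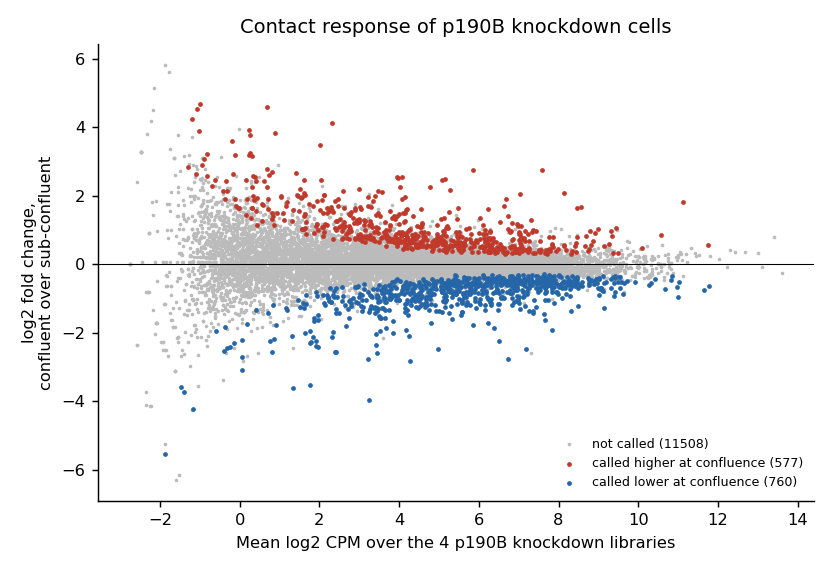
Each point is 1 of the 12845 tested transcripts, with its mean log2 CPM over the 4 p190B libraries on the x axis and its log2 fold change, confluent over sub-confluent, on the y axis. The 577 red points passed the test as higher at confluence and the 760 blue ones as lower; large folds lie at low levels.

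Falls and rises sat at different levels of expression. The transcripts that fell had a median level of 58.0 CPM over the 4 libraries and those that rose 22 CPM. With the tested transcripts divided into 4 bins by their level over the 16 libraries, the lowest bin had 101 calls higher and 33 lower. The highest bin had 139 higher and 381 lower. The share called went from 4.17% in the lowest bin to 16.2% in the highest, as the median standard error fell from 0.452 to 0.121 on the log2 scale. No transcript was switched on or off by the criterion of 0 counts in both libraries of one density and at least 10 in each library of the other. A single call, a fall, rested on 0 counts in both confluent libraries.

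As a share of all transcript-assigned reads, the 577 risen transcripts held 5.59% and 5.89% in the confluent p190B libraries and 3.36% and 3.21% in the sub-confluent ones. The 760 fallen transcripts held 8.52% and 8.31% at confluence and 12.9% and 12.9% sub-confluent. These transcripts were chosen on the same libraries, so the values describe the response and do not test it. Over all transcripts, 10.03% to 11.7% of the reads sat on different transcripts in a confluent and a sub-confluent p190B library (the share that would have to move to make both libraries alike, 4 pairs of libraries). Between replicates the same measure was 6.39% at confluence and 5.41% sub-confluent. In wild-type cells it was 13.6% to 15.1% between densities and 5.66% and 5.59% between replicates. The p190B and wild-type ranges did not overlap. Between densities the measure was 6.84% to 14.7% with the p190A shRNA and 7.80% to 10.3% with both shRNAs. Both of these ranges overlapped that of p190B cells. Of the reads gained at confluence in p190B cells, 20.4% went to the 10 transcripts with the largest gain, and 10.5% of those lost came from the 10 with the largest loss.

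The response was then formed separately in disjoint pairs of libraries, confluent 1 over sub-confluent 1 and confluent 2 over sub-confluent 2. Across the 12845 transcripts, the log2 ratios of these pairs correlated with Pearson's r = 0.549, and with 0.567 when the numbers were crossed. These are correlations across transcripts of the same libraries, given as a description. The ratios spread more widely in the pair numbered 2 (SD 0.668 on the log2 scale) than in the pair numbered 1 (SD 0.547). All 1337 called transcripts had the same sign in each of the 4 possible pairs, as did 59.7% of all tested transcripts, 30.2% higher and 29.5% lower, so the sign alone does not set the calls apart.

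**Figure D2:**
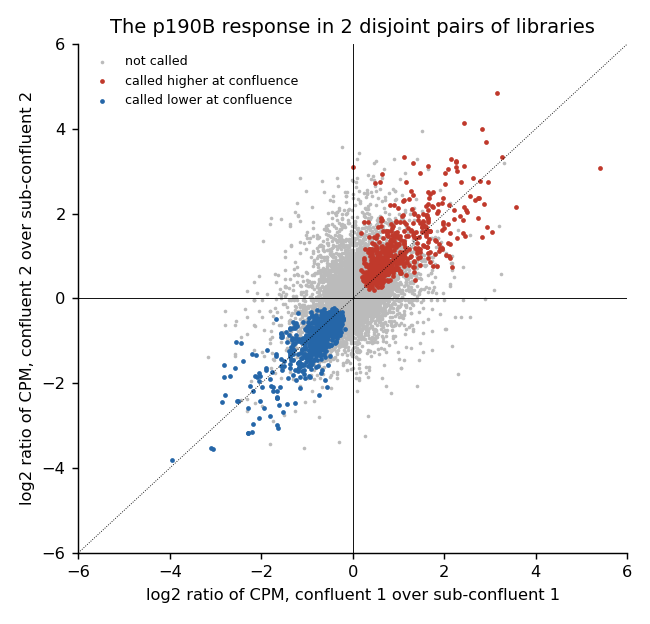
Each point is 1 tested transcript, with its log2 ratio of CPM in confluent library 1 over sub-confluent library 1 on the x axis and the same ratio for the libraries numbered 2 on the y axis; the dotted line marks equal values. The called transcripts lie in the quadrants of equal sign, and the pairs correlated with r = 0.549.

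The number of calls depended on each p190B library. Leaving out confluent replicate 1 gave 744 calls and leaving out confluent replicate 2 gave 148. Leaving out sub-confluent replicate 1 gave 336, and sub-confluent replicate 2 gave 218. Each of these fits kept a lone library, which was assumed to vary like the other groups. Leaving out either sub-confluent p190A library raised the count. Those libraries enter this contrast only through the filter, the scaling and the shared estimate of the spread. The count was 2317 without the filter on low counts, where 19256 transcripts were tested. Same-numbered libraries of one density deviated together across the lines, and with a replicate block within density the count was 2920, 1434 higher and 1486 lower.

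Transcript ENSCAFT00000014491 was the highest-ranked of 418 eligible transcripts that rose. It was at 144 and 161 CPM in the confluent p190B libraries and at 26.6 and 18.4 CPM in the sub-confluent ones. The named rises and falls were chosen and ranked on these libraries by a rule that required no overlap of the densities. Over all tested transcripts, 59.7% had none. For this transcript the fit put the change at 2.76 log2 units (SE 0.40, adjusted p = 2.2e-03). The call was lost without sub-confluent p190B replicate 2 (2.52, adjusted p = 0.057). In wild-type cells it was at 74.1 and 56.5 CPM at confluence and 16.8 and 10.8 CPM sub-confluent, so each p190B library was above each wild-type library of the same density. Its level was far lower with the p190A shRNA (5.90 and 3.78 CPM at confluence, 6.05 and 1.15 CPM sub-confluent) and with both shRNAs (2.63 and 3.41 CPM, 2.06 and 0.762 CPM). The response of p190B cells did not pass the test of a difference from wild type (log2 difference 0.51, SE 0.55, adjusted p = 0.90), from p190A (2.3, SE 0.66, adjusted p = 0.92) or from double knockdown cells (1.59, SE 0.79, adjusted p = 0.45).

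Transcript ENSCAFT00000014488 was next, at 426 and 586 CPM in confluent and 89.1 and 62.1 CPM in sub-confluent p190B cells, which is 2.74 in log2 (SE 0.55, adjusted p = 8.7e-03). It had the same order of lines at confluence. It was at 250 and 249 CPM in confluent wild-type cells, 41.3 and 33.8 CPM with the p190A shRNA, and 15.6 and 26.5 CPM with both. Its call was lost without confluent p190B replicate 2 (2.49, adjusted p = 0.068) and without either sub-confluent p190B library (3.02, adjusted p = 0.077, for the first and 2.50, adjusted p = 0.15, for the second). Whether these transcripts belong to 1 gene is not given in the files. In experiment 2, which shares no library with these, confluent double knockdown cells also had less of both than confluent wild-type cells, by -4.90 in log2 for ENSCAFT00000014491 (SE 0.10, adjusted p = 3.9e-46) and by -3.80 for ENSCAFT00000014488 (SE 0.05, adjusted p = 8.4e-57).

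Transcript ENSCAFT00000013912 was the highest-ranked of 674 eligible transcripts that fell. Confluent p190B libraries had 2.10 and 2.56 CPM and sub-confluent ones 34.9 and 38.2 CPM. The fitted change was -3.96 in log2 (SE 0.33, adjusted p = 1.8e-04), and it was called in all 24 alternative fits, between -4.11 and -3.85. Wild-type cells had more of it at both densities, 15 and 14.8 CPM at confluence and 262 and 146 CPM sub-confluent, with a response of nearly the same size (-3.78, SE 0.28, adjusted p = 3.2e-05). With the p190A shRNA it was below p190B cells at both densities, 1.57 and 1.85 CPM at confluence and 9.99 and 14.2 CPM sub-confluent. It was called lower at confluence there too (-2.82, SE 0.37, adjusted p = 1.5e-03), with no call for the difference between these responses (-1.14, SE 0.54). In double knockdown cells it was low at both densities, 1.23 and 2.78 CPM at confluence and 3.6 and 2.70 CPM sub-confluent, and its response there did not pass the test (-0.58, SE 0.40, adjusted p = 0.47). The response of p190B cells differed from that of double knockdown cells by -3.38 (SE 0.54, adjusted p = 0.013) and did not pass the test against wild type (-0.18, SE 0.43, adjusted p = 0.96). In experiment 2, confluent double knockdown cells had less of it than confluent wild-type cells (-1.79 in log2, SE 0.12, adjusted p = 1.6e-19). That direction is opposite to the median of the p190B contact-lowered set there, given below.

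Transcript ENSCAFT00000044360 was the next to fall, from 36.8 and 68.1 CPM in sub-confluent to 7.40 and 7.36 CPM in confluent p190B cells, or -2.83 in log2 (SE 0.58, adjusted p = 9.8e-03). Unlike the former it was also called lower at confluence in double knockdown cells (-3.10, SE 0.51, adjusted p = 0.011), where it went from 598 and 501 CPM to 65.0 and 63.1 CPM. Its level was lowest in p190B cells at confluence, and the 2 sub-confluent p190B libraries were both below the wild-type ones (104 and 130 CPM). In experiment 2, confluent double knockdown cells had more of this transcript than confluent wild-type cells (1.59 in log2, SE 0.10, adjusted p = 1.2e-06). Its call in p190B cells was lost without either confluent p190B library (adjusted p = 0.051 and 0.091) and without sub-confluent p190B replicate 2 (-2.32, adjusted p = 0.13).

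**Figure D3:**
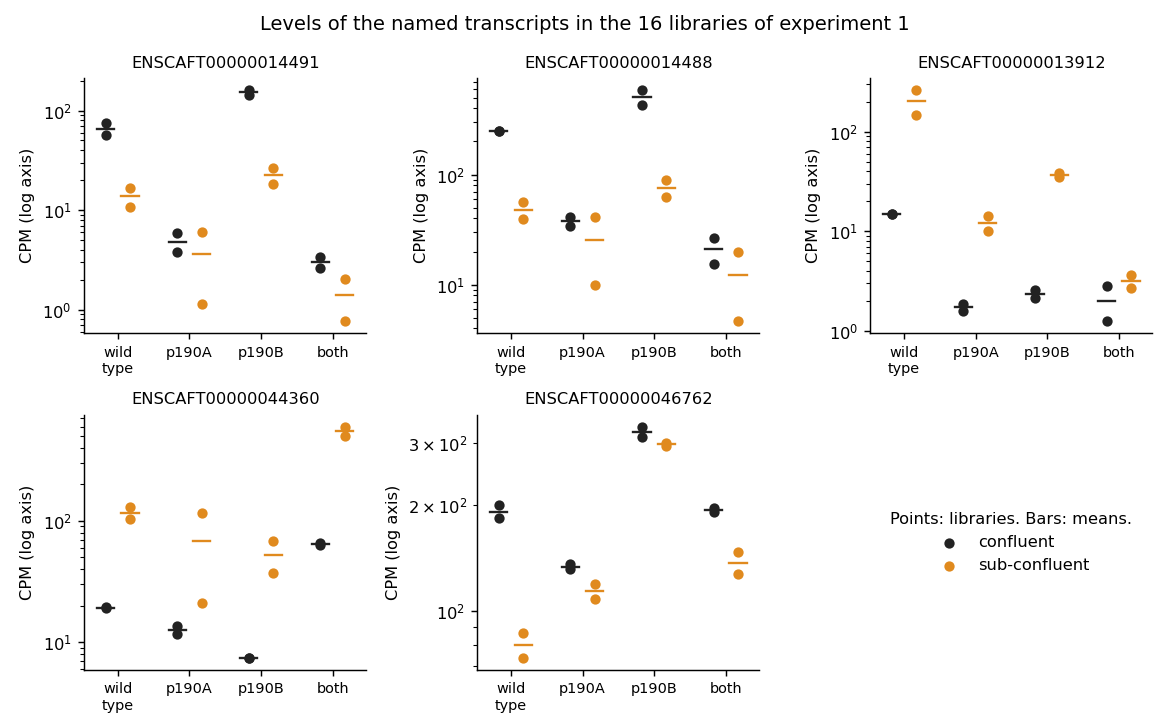
CPM of the 5 named transcripts (log y axis, different ranges) in the 16 libraries of experiment 1, by line on the x axis; black points are confluent and orange points sub-confluent libraries, with bars at the means. ENSCAFT00000014491 and ENSCAFT00000014488 are highest in confluent p190B cells, and ENSCAFT00000046762 is high at both densities in p190B cells.

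The lines share no library in this comparison, so calls could be set side by side. Their responses are not independent, since same-numbered libraries of one density deviated together across lines. To what extent this enters the overlaps, correlations and chosen sets below was not tested. Of the 577 transcripts higher at confluence in p190B cells, 441 (76.4%) were also called higher in wild-type cells, where 14.3% of all tested transcripts were (29.3% were called in either direction). They made up 24.0% of the 1839 wild-type rises. Of the 760 lower ones, 646 (85.0%) were also called lower in wild-type cells, against 15% of all tested, and they were 33.5% of the 1930 wild-type falls. Opposite calls were 0 for the rises and 3 for the falls. With the p190A shRNA, 202 of the 577 rises (35%, against 3.87% of all tested) and 443 of the 760 falls (58.3%, against 6.93%) were called in the same direction. In double knockdown cells these counts were 32 of 577 (5.55%, against 0.911% of all tested) and 51 of 760 (6.71%, against 0.895%). Of the 1337 calls in p190B cells, 619 were called in the same or the opposite direction in both wild-type and p190A cells, and 216 in none of the other lines. In either direction, 29.3% of all tested transcripts were called in wild-type and 10.8% in p190A cells. The share called in both was not counted but cannot exceed 10.8%. Nor was the share called in none of the other lines counted, so the 216 has no background beside it. Across transcripts, the p190B log2 fold changes correlated with those of wild-type cells with r = 0.730, of p190A cells with r = 0.681 and of double knockdown cells with r = 0.458 (12845 transcripts each, as a description).

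Whether the responses differed was tested as an interaction. Against wild type, a single transcript passed, ENSCAFT00000046762, or 0.00779% of those tested. At an unadjusted p under 0.05 there were 809, or 6.30% of those tested. DESeq2 called 15 and limma-voom 1, and without the filter on low counts edgeR called 136. Fitting the p190B and wild-type libraries alone gave 17 calls, and a replicate block within density gave 13. It was 0 without any single p190B library, either confluent wild-type library or sub-confluent wild-type replicate 2. It was also 0 without any one confluent p190A or double knockdown library, and 12 without either sub-confluent p190A library. For the 1337 transcripts called in p190B cells, the median standard error of this difference was 0.244 on the log2 scale, an approximate 95% interval of 0.478 to either side. A difference from wild type within that width could not be told from none with these libraries. The interval is not adjusted for the number of transcripts tested, so larger differences could also go uncalled.

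ENSCAFT00000046762 was the transcript that passed. Its level hardly moved with density in p190B cells, 334 and 313 CPM at confluence and 295 and 301 CPM sub-confluent (log2 fold change 0.12, SE 0.10, adjusted p = 0.49). Wild-type cells went from 86.8 and 73.6 CPM sub-confluent to 184 and 200 CPM at confluence (1.26, SE 0.11, adjusted p = 6.6e-05). The difference between the responses was -1.14 (SE 0.15, adjusted p = 0.033). Both densities of the p190B line were above both of wild type, with no overlap. With both shRNAs the transcript was at 196 and 191 CPM at confluence and 128 and 147 CPM sub-confluent. Its rise there was called (0.50, SE 0.10, adjusted p = 0.033). The p190B response did not pass the test of a difference from that line (-0.38, SE 0.15, adjusted p = 0.31). With the p190A shRNA it was at 136 and 132 CPM at confluence and 120 and 108 CPM sub-confluent, and the p190B response did not pass the test of a difference from that line (-0.11, SE 0.15, adjusted p = 1). The difference from wild type stayed between -1.26 and -1.02 in fits without a library, while its adjusted p ranged from 5.2e-03 to 0.38. It was not called without either confluent wild-type library (adjusted p = 0.12 and 0.26), without confluent p190B replicates 1 and 2 (0.17 and 0.38) or sub-confluent ones (0.19 and 0.28), without sub-confluent wild-type replicate 2 (0.36), or without any one confluent p190A (0.096 and 0.097) or confluent double knockdown library (0.086 and 0.079).

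Against the p190A knockdown, edgeR called 0 transcripts (0% of those tested). At an unadjusted p under 0.05 there were 580, or 4.52%. DESeq2 called 8, limma-voom 0, edgeR without the filter on low counts 89, and edgeR with a replicate block within density 3. The count was 16 and 2 without sub-confluent p190A replicates 1 and 2, and 1 without sub-confluent p190B replicate 1.

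Against double knockdown cells, which carry the same p190B shRNA and the p190A shRNA besides, 118 transcripts differed in their response, 0.919% of those tested. Of these, 101 were more negative and 17 more positive in p190B cells. In the 101, the p190B cells were mostly lower at confluence: 88 were called lower there, and for 93 the p190B response was below 0 while that of double knockdown cells was above 0. The contrast chose these, so their values in p190B and double knockdown cells (medians of -0.95 and 0.33) are a description. The wild-type and p190A libraries entered the choice only through the filter, the scaling and the shared estimate of the spread, although same-numbered libraries of one density deviated together across lines. The 101 had a median log2 response of -0.96 in wild-type cells, where 87 were called lower against 15% of all tested, and of -0.69 in p190A cells, where 72 were called lower against 6.93%. Of the 101, 86.1% were above the median level of tested transcripts. The 17 more positive ones had medians of 0.57 in wild-type cells, with 10 called higher against 14.3% of all tested, and 0.14 in p190A cells, with 0 called higher against 3.87%.

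The count of 118 was 287 with DESeq2, 104 with limma-voom and 554 without the filter on low counts. With a replicate block within density it was 453, 343 more negative and 110 more positive. It fell to 68 without confluent p190B replicate 1 and to 2 without confluent p190B replicate 2. Without sub-confluent p190B replicate 1 it was 21, and 19 without the other. Leaving out confluent double knockdown replicate 1 gave 19, and replicate 2 gave 65. Leaving out either confluent p190A library gave 77, and either sub-confluent p190A library 236; these libraries enter this contrast only through the filter, the scaling and the shared estimate of the spread.

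**Figure D4:**
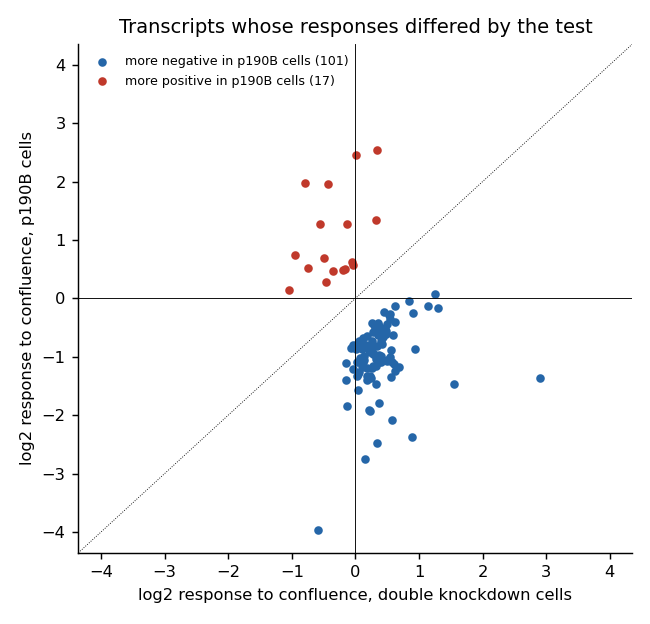
The 118 transcripts whose response to confluence differed between p190B and double knockdown cells by the test, with the log2 response of double knockdown cells on the x axis and that of p190B cells on the y axis; the dotted line marks equal responses. Most of the 101 blue points lie below 0 in p190B cells and above 0 in double knockdown cells.

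To compare the size of the responses on transcripts that neither line had chosen, sets were taken from the p190A libraries: 188 transcripts called at least 2-fold higher at confluence there (1.46% of those tested) and 267 at least 2-fold lower (2.08%). For the 188 the median log2 response was 1.13 in p190B cells, 1.64 in wild-type cells and 0.72 in double knockdown cells. Over all tested transcripts the medians were 0.02, 0.01 and 0.01. Taken in disjoint pairs of libraries, the set's median was 0.89 and 1.22 in p190B cells, 1.66 and 1.59 in wild-type cells and 0.33 and 0.96 in double knockdown cells. Both p190B values were below both wild-type values. The p190B and double knockdown values overlapped, and within each replicate number the p190B value was the higher one. Libraries were joined across densities by number alone, and medians of crossed pairs were not taken. Whether values overlap may depend on that choice, also for the sets below. In double knockdown cells the log2 ratios of the 2 pairs correlated with r = 0.252, and with 0.420 when the numbers were crossed. The double knockdown median was 0.31 without confluent double knockdown replicate 2. In p190B cells 78 of the 188 (41.5%) were called higher, 170 in wild-type cells (90.4%) and 14 in double knockdown cells (7.45%), against 4.49%, 14.3% and 0.911% of all tested. The response was smaller in p190B than in wild-type cells for 158 of the 188 (84.0%). No single one of these differences passed the interaction test. An unadjusted p under 0.05 was found for 30 of the 188, a larger share than the 6.30% of all tested. It was larger in p190B than in double knockdown cells for 138 of the 188, with 0 differences past the interaction test and 25 at an unadjusted p under 0.05, against 12.1% of all tested.

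For the 267 lowered transcripts the median was -0.33 in double knockdown, -1.04 in p190B and -1.28 in wild-type cells. In disjoint pairs it was -0.88 and -1.16 in p190B cells, -1.15 and -1.33 in wild-type cells, and -0.16 and -0.50 in double knockdown cells. Here the p190B values overlapped those of wild type and not those of the double knockdown. Within each replicate number the fall was smaller in p190B than in wild-type cells. The double knockdown median was -0.14 without confluent p190A replicate 2, which left 101 transcripts in the set, and -0.13 without sub-confluent p190A replicate 2, which left 30. The fall was smaller than in wild type for 186 of the 267 (69.7%), with 0 differences past the interaction test and 20 at an unadjusted p under 0.05, close to the 6.30% of all tested. It was larger than in double knockdown cells for 208, and 29 of these differences passed the test, against 0.919% of all tested, all with the larger fall in p190B cells. Called lower were 154 in p190B (57.7%, against 5.92% of all tested), 223 in wild-type (83.5%, against 15%) and 32 in cells with both shRNAs (12%, against 0.895%). The lowered set's median in p190B cells was -0.81 without confluent p190A replicate 1, which left only 2 transcripts in the set, and the raised set had no member in that fit. The raised set's median in p190B cells was 0.76 without confluent p190B replicate 2.

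**Figure D5:**
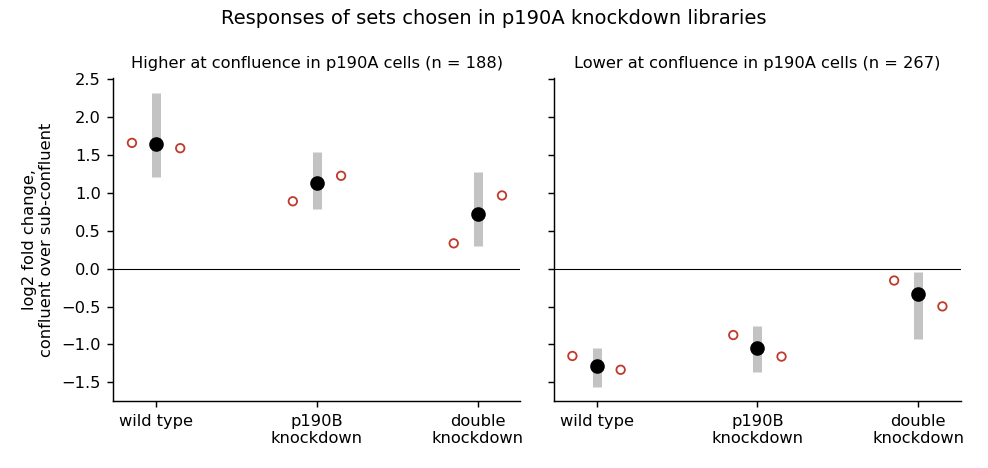
Median log2 fold change, confluent over sub-confluent, of the 188 transcripts higher and the 267 lower at confluence in p190A cells, in the 3 lines that did not choose them; black points are medians, grey bars the interquartile range of the transcripts and open red points the medians in each of 2 disjoint pairs of libraries. Medians run from 1.64 through 1.13 to 0.72 in the raised set and from -1.28 through -1.04 to -0.33 in the lowered set.

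Sets chosen in wild-type cells gave the single knockdowns side by side. The wild-type response held 780 transcripts with a call of at least 2-fold higher (6.07% of those tested), whose median log2 response was 0.95 in p190B and 0.97 in p190A cells. The 457 at least 2-fold lower (3.56%) had a median of -0.97 in p190B and -1.05 in p190A cells. In p190B cells 230 of the 780 were called higher (29.5%, against 4.49% of all tested) and 243 of the 457 lower (53.2%, against 5.92%). In p190A cells 237 were called higher (30.4%, against 3.87%) and 285 lower (62.4%, against 6.93%). In disjoint pairs of libraries the raised set's median was 0.69 and 1.05 in p190B and 0.61 and 1.28 in p190A cells, so the pair values of the lines overlapped.

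For the sets chosen in p190A cells, the levels behind the responses of p190B and wild-type cells were also read. The 188 transcripts of the raised set together held 0.656% and 0.633% of the reads in sub-confluent p190B libraries and 0.355% and 0.370% in sub-confluent wild-type ones. At confluence they held 1.43% and 1.49% in p190B and 1.29% and 1.46% in wild-type libraries. The groups were apart at low density and overlapped at confluence. Transcript by transcript, the median log2 difference of p190B from wild type was 0.37 sub-confluent, with 31 of 188 called higher (16.5%, against 8.80% of all tested) and 10 lower (5.32%, against 9.23%). At confluence it was -0.23, with 15 called higher (7.98%, against 7.04%) and 23 lower (12.2%, against 5.64%). The confluent value was 0.05 without confluent p190B replicate 1, over a set of 221 transcripts, so its sign rested on that library. Without sub-confluent p190A replicate 2 only 3 transcripts were left in the set, with medians of 0.27 at confluence and 0.25 sub-confluent.

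The 267 transcripts of the lowered set held 1.21% and 1.43% of the reads in sub-confluent p190B and 1.93% and 2.01% in sub-confluent wild-type libraries. At confluence they held 0.640% and 0.611% in p190B and 0.840% and 0.787% in wild-type libraries, so the p190B cells were lower at both densities with no overlap. The median log2 difference of p190B from wild type was -0.52 sub-confluent, with 81 of 267 called lower (30.3%, against 9.23% of all tested) and 13 higher (4.87%, against 8.80%). At confluence it was -0.33, with 40 called lower (15%, against 5.64%) and 14 higher (5.24%, against 7.04%). The confluent median was -0.50 without confluent p190B replicate 1. These differences from wild type use the same libraries as the responses above and were added after the data had been seen.

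The libraries of experiment 2 had no part in choosing the p190B contact sets. There, confluent double knockdown cells were compared with confluent wild-type cells, 3 libraries each, and 70.3% of all 13061 tested transcripts were called. Of the 234 transcripts at least 2-fold higher at confluence in p190B cells, 228 were tested, and their median log2 fold change in the double knockdown was -0.71, with -0.69, -0.67 and -0.66 in the 3 double knockdown libraries. Of these, 154 were called lower (67.5%, against 35.1% of all tested) and 24 higher (10.5%, against 35.2%), 87 and 13 of them at least 2-fold, against 8.44% and 4.87% of all tested. Of the 205 at least 2-fold lower, 197 were tested, with a median of 0.52 and 0.53, 0.51 and 0.47 in the 3 libraries. Of these, 132 were called higher (67.0%) and 37 lower (18.8%). The raised set's median was -0.36 without sub-confluent p190B replicate 1, which left 54 transcripts, and -1.29 without sub-confluent p190B replicate 2, which left 36. The median over all transcripts tested in experiment 2 was 0.00.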

How the data were processed

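Single reads were sequenced from TruSeq mRNA libraries, per the labels' protocols. The authors deposited 1 table of whole-number counts per sample, for 29884 Ensembl dog transcripts plus 5 summary rows, not normalized. Tools named without roles in the submitters' processing notes are HTSeq 0.6.0, STAR 2.3.1n and DESeq2 1.4.5, with the CanFam3.1 build. The strand setting of the counting was not given in the sources read here. Reads shared by overlapping transcripts were in the summary row for ambiguous reads, 21.2% to 23.1% of uniquely placed reads in experiment 1. The row for reads outside transcripts held 21.2% to 23.6% of them, and alignments to several places made up 25.2% to 30.7% of the total of each table. These summary lines did not enter library sizes or tests. No deposited value column was left unmapped (0 columns).

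The 16 libraries of experiment 1 were fitted together with 8 group means in edgeR 4.0.16 (R 4.3.3): filterByExpr, TMM, robust quasi-likelihood F-tests, Benjamini-Hochberg adjustment over all 12845 tested transcripts, called at adjusted p under 0.05. Experiment 2 was fitted alone with 4 group means over 11 distinct libraries, since 2 of its files held identical values. Standard errors were derived from the F statistic. Fits were tested on simulated data. Alternatives used DESeq2 1.42.0, limma-voom (limma 3.58.1), RLE size factors, no filter, only the groups compared, replicate blocks and leaving out libraries. Named transcripts were called, had a level of 3 or more in mean log2 CPM and CPM that did not overlap between densities (59.7% of all tested did not), and were ranked by fold change. The first 2 in each direction are given, and any transcript called in an interaction with 5 or fewer calls. Members, sets and rules were chosen with earlier results of these data known. Planned gene lists and markers needed symbols and were not run.

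Replicate numbers come from the titles. Deviations of same-numbered libraries correlated positively across transcripts in all 12 pairs of lines within a density (r from 0.142 to 0.537). Across densities none of the 4 lines had a positive correlation of that size (r from -0.188 to 0.018). The lowest value, -0.188, was that of double knockdown cells, a negative relation by number. Any positive pairing by number would therefore hold within a density only. The main fit had no replicate block and so used no pairing. A block within density was run as an alternative.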

Additional observations from a re-analysis of the deposited data

Results flagged for a closer look

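The response to confluence of ENSCAFT00000046762 differed between p190B knockdown and wild-type cells by the interaction test, by -1.14 on the log2 scale (SE 0.15, edgeR adjusted p = 0.033). It was the only one of 12845 transcripts to do so in that fit. The responses of 118 transcripts differed between p190B and double knockdown cells by the same test. Among the named transcripts, ENSCAFT00000013912 was one of these, with a log2 difference of -3.38 (SE 0.54, edgeR adjusted p = 0.013).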

How the results depend on the processing

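The count of 1337 transcripts in the p190B contact response ranged from 148 to 1984 when single libraries were left out. The top of that range came from leaving out a sub-confluent p190A library, which is not in this contrast. The count was 2317 without the filter on low counts and 2920 with a replicate block within density. It was within 1.5 times of 1337 with RLE size factors, DESeq2, limma-voom, only the groups compared, and the other replicate blocks. The difference from wild type had 1 call, and 136 without the filter, 17 with only the groups compared, 15 with DESeq2, 2 under a replicate block, 13 under a replicate block within density, and 0 to 12 without single libraries. The difference from p190A had 0 calls, and 89 without the filter, 3 under a replicate block within density, 8 with DESeq2, and 0 to 16 without single libraries. The difference from double knockdown had 118 calls, and 554 without the filter, 453 under a replicate block within density, 287 with DESeq2, and 2 to 236 without single libraries. The cause was not tested, except that fits without the filter tested 19256 transcripts.

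The median response in p190B cells of the sets chosen in p190A cells ran from 0.757 to 1.253 (raised) and from -1.174 to -0.807 (lowered) without single libraries. The sets followed in experiment 2 had medians of -0.647 (raised) and 0.428 (lowered) without the filter, and of -1.293 to -0.356 and 0.450 to 0.536 without single libraries. Of these medians none changed sign. The raised set's confluent difference of p190B from wild type did, ranging from -0.527 to 0.272 without single libraries, where the highest value is over the 3 transcripts left in the set and the next, 0.0474, over 221. The lowered set's ranged from -0.503 to -0.261. In double knockdown cells the medians ranged from 0.314 to 0.838 (raised) and from -0.439 to -0.126 (lowered). The log2 fold changes of the named transcripts kept their sign in every fit run, and 18 of their fits no longer passed the test, all of them without a library. The raised set chosen in p190A cells had no member without confluent p190A replicate 1 and gave no value there.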
